A study of Mus musculus with 10 samples.

Results

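Chemokines are small proteins that steer the movement of leukocytes, and each acts through G-protein-coupled receptors on the cells it attracts. Monocyte attractants such as Ccl2, acting on Ccr2, are known in obese visceral fat for bringing in monocytes that become macrophages, while the interferon-induced ligands of Cxcr3 attract effector T cells and NK cells. Atypical chemokine receptors bind ligands without the usual signalling, and take them up or pass them on. Serglycin, the product of Srgn, is a proteoglycan of secretory granules and secretory vesicles in blood-derived cells, and its sugar chains bind granule proteins.

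The chemokine genes were chosen by symbol alone: every row of the count table named Ccl, Cxcl, Xcl, Cx3cl, Ccr, Cxcr, Xcr, Cx3cr or Ackr followed by digits and, where present, a final letter. They number 54 of the 23930 genes in the table, 33 ligands and 21 receptors. Transcripts of epididymal white adipose tissue, a visceral depot of male mice, were counted by Ion AmpliSeq, which amplifies 1 short stretch of each transcript. The groups were Srgn-/- mice, which lack serglycin (n = 5), and Srgn+/+ mice, the wild type (n = 5). All 10 mice were C57BL/6 males aged 18 weeks that had spent 8 weeks on the high sucrose/high fat diet, so there was no lean or chow-fed group. Neither the deleted part of Srgn, nor where its amplicon lies, nor whether the mice were littermates is given in the sources used here. Ccl19, Ccl21, Ccl27 and Ackr1, which bear on some of the receptors below, have no row under these symbols and were not analysed here.

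The libraries held 7824764 to 10757779 reads. Levels are normalized counts-per-million values (CPM), scaled with TMM factors, and 3 reads correspond to 0.287 to 0.398 CPM depending on the library. Srgn measured 0.294, 0.110, 0, 0 and 1.31 CPM in Srgn-/- fat, against 74.7, 100.05, 132, 97.3 and 133 CPM in Srgn+/+ fat, so every library matched its genotype label. Adipocyte markers summed to between 28162 and 33978 CPM in Srgn-/- libraries and between 28906 and 36214 CPM in Srgn+/+ libraries. RNA of the neighbouring epididymis stood out in 3 libraries, in which a list of 12 epididymis genes summed to 3519 CPM (Srgn-/- 3), 1022 CPM (Srgn-/- 5) and 444 CPM (Srgn+/+ 4). The larger shifts of a fold change without these 3 libraries are given beside the gene. Macrophage markers summed to 1835 to 3557 CPM in Srgn-/- fat and 1751 to 6020 CPM in Srgn+/+ fat. All 10 tested members of that list had a fold change below 0, beside 50.3% of all tested genes, and none passed the threshold. In whole tissue, fewer cells of a type and less RNA per cell cannot be told apart.

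Of the 33 ligands, 25 had reads in all 10 libraries, 7 had reads in some and 1, Ccl26, had none. Of the 21 receptors, 12 had reads in all 10 libraries and 9 in some. A filter on low counts left 24 ligands and 12 receptors among the 12719 genes that were tested. No chemokine or receptor differed between the genotypes past an adjusted p of 0.05 in edgeR, whose only call over all genes was Srgn (0.00786% of genes). At an unadjusted p under 0.05, the lower side held 1 ligand (Cxcl13) and 2 receptors (Ccr7 and Cxcr3), beside 6.06% of all tested genes. The higher side held 1 ligand (Ccl28) and no receptor, beside 6.77% of all tested genes. By DESeq2 and by limma-voom with quality weights the number of chemokines and receptors called was also 0, though DESeq2 gave no adjusted p for Cxcl13 and Ccl17.

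The fitted fold changes leaned to lower values in Srgn-/- fat without any single gene passing. They were below 0 for 17 of 24 ligands (70.8%) and for 9 of 12 receptors (75%), beside 50.3% of all tested genes. They were above 0 for the remaining 7 ligands and 3 receptors, beside 49.7% of all tested genes. These are not counts of independent genes, since many members moved together over the same 10 animals. With each genotype centred on its own mean, the correlation r of log2 levels was 0.99 for Ccl2 and Ccl7 and 0.97 for Ccl6 and Ccl9. Other members moved in opposite directions, such as Ccl9 and Cxcl11 with an r of -0.92. The median log2 fold change was -0.32 over the ligands and -0.18 over the receptors, while that of all tested genes was -0.00138. The lean of the ligands rested in part on a few animals: their median was -0.07, with 14 of 24 below 0, without the 3 libraries holding epididymis RNA. It was -0.09 without Srgn+/+ 3, -0.20 without Srgn+/+ 5 and -0.47 without Srgn-/- 1. The median of the receptors was -0.40 without Srgn-/- 1, and 8 of 13 tested receptors were below 0 without Srgn+/+ 3. Fold changes of chemokine genes were also less exact than most. The median standard error of a log2 fold change was 0.399 for ligands and 0.311 for receptors, beside 0.165 for all tested genes. These errors include the spread between mice and do not show that the genes were poorly counted. Ccl6, with 45871 reads over the 10 libraries, had a standard error of 0.371.

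**Figure D1:**
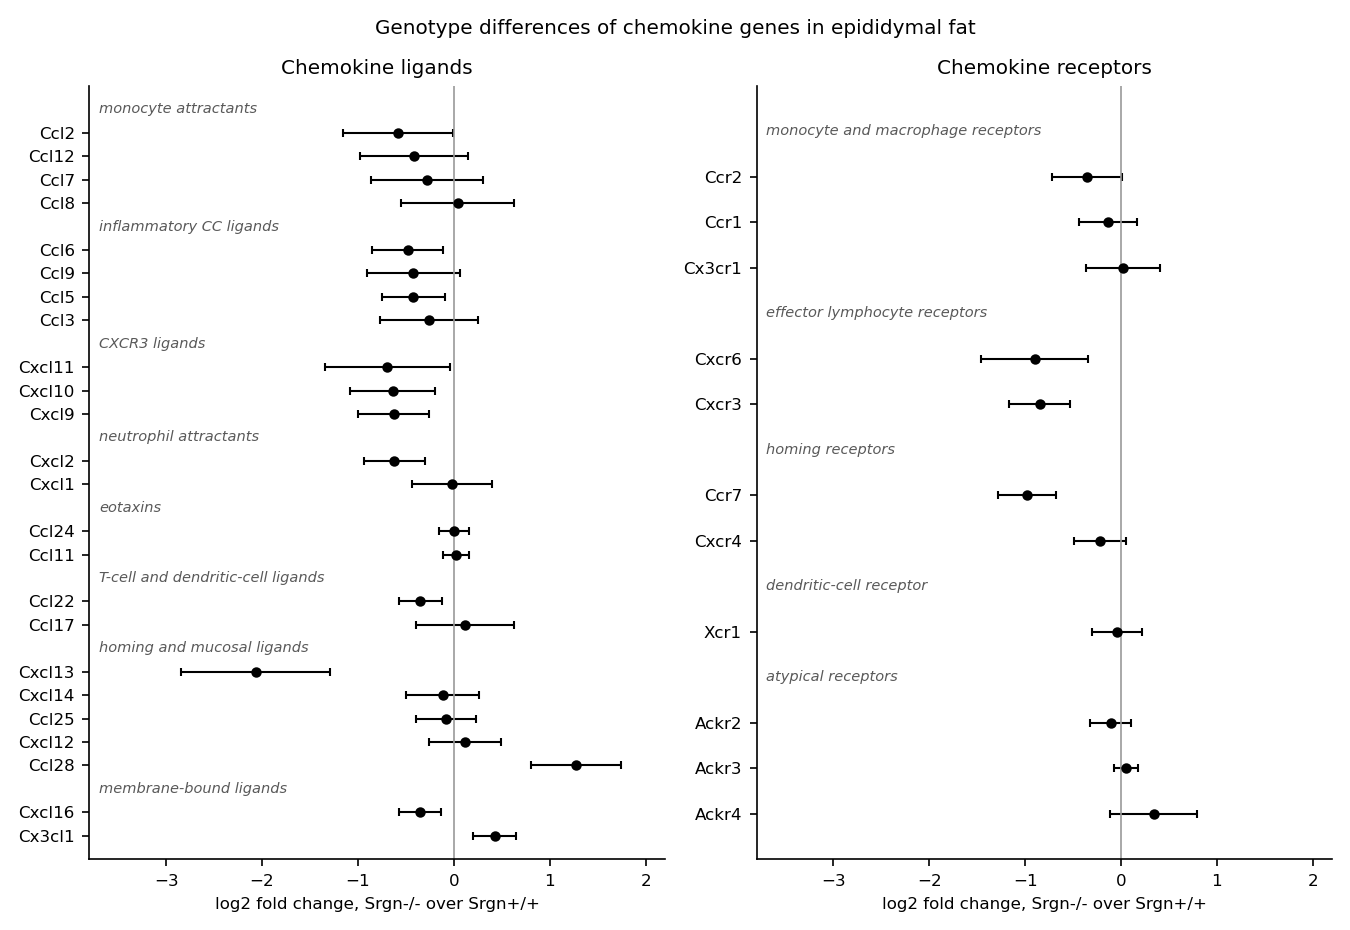
Log2 fold change of Srgn-/- over Srgn+/+ (x axis) for tested chemokine ligands and receptors, ordered by role (y axis), with bars for ± 1 standard error of the edgeR fit. Most points lie left of 0, the widest bars belong to Cxcl13 and Cxcl11, and Ccl28 stands farthest to the right at 1.27.

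Monocyte attractants, the ligands that draw Ccr2-bearing cells, overlapped between the genotypes and varied widely between animals. Ccl2, the main monocyte attractant of obese fat, measured 336, 75.1, 67.0, 152 and 204 CPM in Srgn-/- fat, against 48.1, 332, 359.7, 358 and 152 CPM in Srgn+/+ fat. The groups overlapped widely, with the lowest value of all in Srgn+/+ 1. Ccl2 had a log2 fold change of -0.58 (SE 0.575, 95% interval -1.86 to 0.69, edgeR adjusted p = 0.696), and lay between -1.01 (without Srgn-/- 1) and -0.25 (without the 3 libraries holding epididymis RNA) over the 20 settings. Ccl7, a second Ccr2 ligand, measured 109.7, 23.0, 23.9, 38.7 and 48.1 CPM in Srgn-/- fat, against 10.01, 79.7, 91.5, 78.8 and 36.8 CPM in Srgn+/+ fat. The fitted log2 change was -0.28 (SE 0.584, edgeR adjusted p = 0.868), and 0.07 without the 3 libraries holding epididymis RNA. Ccl8, which in mice also acts on Ccr8, measured 185, 43.2, 65.7, 153 and 139 CPM in Srgn-/- fat, against 14.1, 118, 217, 127 and 93.7 CPM in Srgn+/+ fat. Its groups covered the same range, with Srgn+/+ 1 again the lowest, and its log2 fold change of 0.04 (SE 0.589, 95% interval -1.27 to 1.35) changed sign when single libraries were left out. Ccl12, a mouse relative of Ccl2, averaged 6.95 ± 3.06 CPM in Srgn-/- fat and 9.29 ± 8.36 CPM in Srgn+/+ fat (SD, n = 5 each). Its log2 fold change of -0.41 (SE 0.565) was 0.24 without Srgn+/+ 3 and -0.08 without the 3 libraries holding epididymis RNA.

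These 4 attractants lie beside Ccl11 and Ccl1 on chromosome 11, in the order Ccl2, Ccl7, Ccl11, Ccl12, Ccl8 and Ccl1 in the RefSeq annotation of GRCm38.p6. The highest library exceeded the lowest 7.47-fold for Ccl2, 11-fold for Ccl7, 11.2-fold for Ccl12 and 15.4-fold for Ccl8. Ccl11, the eosinophil attractant eotaxin, which sits among them, varied only 1.61-fold and was singled out after its values were seen. Its levels were 38.4, 37.6, 31.7, 40.4 and 38.1 CPM in Srgn-/- fat, against 28.4, 45.8, 36.2, 42.0 and 31.3 CPM in Srgn+/+ fat. Like its 4 neighbours, Ccl11 was lowest in Srgn+/+ 1. With each genotype centred on its own mean, its r was 0.77 with Ccl2, 0.73 with Ccl7, 0.64 with Ccl8 and 0.41 with Ccl12. Ccl11 had a log2 fold change of 0.02 (SE 0.134) with a 95% interval of -0.27 to 0.31. Close relatives in this cluster are similar in sequence, and whether an amplicon also takes up reads of a neighbour was not tested.

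**Figure D2:**
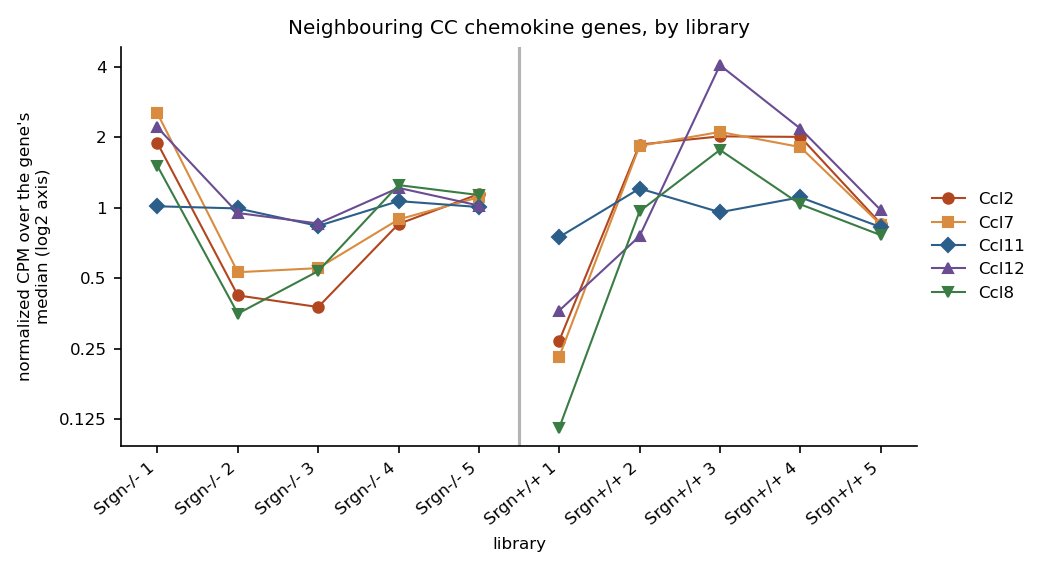
CPM of 5 neighbouring ligands on chromosome 11 in each library, divided by the gene's median over the 10 libraries (y axis, log2 scale), with Srgn-/- libraries left of Srgn+/+ libraries on the x axis. Ccl2, Ccl7, Ccl12 and Ccl8 dip together in Srgn+/+ 1 and spread over 7.47-fold to 15.4-fold. Ccl11 is also lowest in Srgn+/+ 1 but stays within 1.61-fold.

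The inflammatory CC ligands Ccl3, Ccl5, Ccl6 and Ccl9, which attract monocytes, macrophages and T cells, had fitted fold changes below 0 in all 4 cases. Ccl6, a mouse Ccr1 ligand, averaged 420.1 ± 193 CPM in Srgn-/- fat and 586 ± 225 CPM in Srgn+/+ fat (SD, n = 5 each), with a log2 fold change of -0.48 and an SE of 0.371 (edgeR adjusted p = 0.609). Ccl9, also a mouse Ccr1 ligand, averaged 376 ± 218 CPM in Srgn-/- fat and 505 ± 252 CPM in Srgn+/+ fat, a log2 fold change of -0.42 (SE 0.487). Both stayed below 0 in all 20 settings tried but moved in size: without the 3 libraries holding epididymis RNA they were -0.17 for Ccl6 and -0.10 for Ccl9, and without Srgn-/- 1 they were -0.69 for Ccl6 and -0.70 for Ccl9. Ccl5 (RANTES), made by T cells and others, averaged 11.6 ± 2.64 CPM in Srgn-/- fat and 15.5 ± 9.26 CPM in Srgn+/+ fat. For Ccl5 the log2 fold change was -0.42 (SE 0.333), and 0.01 without Srgn+/+ 3, which held 31.3 CPM. Ccl3 averaged 2.88 ± 1.75 CPM in Srgn-/- fat and 3.46 ± 2.09 CPM in Srgn+/+ fat, with a log2 fold change of -0.26 that was 0.07 without Srgn+/+ 5 and -0.01 without the 3 libraries holding epididymis RNA.

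The interferon-induced ligands of Cxcr3 were shown with sequence because Cxcl9 and Cxcl10 are among the ligands with the smallest p, and their starts differ in a motif of the interferon response. The 250 bases before each gene's start are given 5′ to 3′ on the gene's strand, from RefSeq GRCm38.p6. Capitals mark matches to GAAA-NN-GAAA, the core of the interferon-stimulated response element, or to GGGA-NN-TTCC, the core of the site bound by NF-kappaB, where N is any base and both strands were searched. In the lines for this pair Cxcl10 holds both motifs, beginning at positions -213 and -159 from its start, and Cxcl9 holds neither.
Cxcl10 chr5:92348890-92349139 (minus strand): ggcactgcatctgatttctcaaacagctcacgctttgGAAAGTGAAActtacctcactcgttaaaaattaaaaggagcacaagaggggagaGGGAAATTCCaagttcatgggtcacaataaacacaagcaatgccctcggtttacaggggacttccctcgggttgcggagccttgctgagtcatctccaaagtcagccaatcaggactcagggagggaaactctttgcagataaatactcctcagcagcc
Cxcl9 chr5:92328080-92328329 (minus strand): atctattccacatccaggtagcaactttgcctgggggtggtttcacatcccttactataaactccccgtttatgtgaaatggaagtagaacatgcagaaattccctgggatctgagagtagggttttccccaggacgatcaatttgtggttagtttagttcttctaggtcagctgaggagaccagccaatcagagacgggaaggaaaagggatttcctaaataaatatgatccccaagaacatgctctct

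Among all 32851 promoter windows of this length, 2.98% held GAAA-NN-GAAA and 1.21% held GGGA-NN-TTCC. A window was found for 39 of the 54 chemokine genes, of which Cxcl10 and Cxcl14 held the first motif and Ccl1, Ccr3, Cxcl1, Cxcl10, Cxcl2 and Cxcl3 the second. A match describes letters in this window and is not evidence of binding. A window with no match to these fixed letters may still hold a variant of the site.

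All 3 ligands of Cxcr3 had fold changes below 0, and none passed. Cxcl9 measured 78.1, 74.2, 97.4, 82.7 and 70.3 CPM in Srgn-/- fat, against 96.8, 121, 275, 62.8 and 66.6 CPM in Srgn+/+ fat. The Srgn-/- animals lay close together, and Srgn+/+ 3 was far above every other animal. For Cxcl9 the log2 fold change was -0.63 (SE 0.369, 95% interval -1.45 to 0.19, edgeR adjusted p = 0.504), -0.11 without Srgn+/+ 3 and -0.84 without the 3 libraries holding epididymis RNA. Cxcl10 measured 25.2, 11, 14.8, 18.1 and 23.5 CPM in Srgn-/- fat, against 7.31, 30.4, 55.9, 31.0 and 19.6 CPM in Srgn+/+ fat. Its groups overlapped, with both the lowest and the highest animal in Srgn+/+, and its log2 fold change was -0.64 (SE 0.440, 95% interval -1.61 to 0.34, edgeR adjusted p = 0.568). That of Cxcl10 was -0.25 without Srgn+/+ 3. Cxcl11, whose coding frame is known to be disrupted in C57BL/6 mice, averaged 5.26 ± 2.24 CPM in Srgn-/- fat and 8.44 ± 9.93 CPM in Srgn+/+ fat (SD, n = 5 each). Its pattern over animals was unlike that of Cxcl10: Srgn+/+ 1 held 25.9 CPM of Cxcl11, the highest, and the lowest level of Cxcl10. For Cxcl11 the log2 fold change was -0.69 (SE 0.653), 0.36 without Srgn+/+ 1 and -1.12 without the 3 libraries holding epididymis RNA.

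The neutrophil attractants Cxcl1 and Cxcl2, ligands of Cxcr2, both carry the NF-kappaB core close to the start, beginning at position -71 in Cxcl1 and -97 in Cxcl2. In these sequences the capitals run over 11 letters, because a match on each strand overlaps.
Cxcl2 chr5:90903649-90903898 (plus strand): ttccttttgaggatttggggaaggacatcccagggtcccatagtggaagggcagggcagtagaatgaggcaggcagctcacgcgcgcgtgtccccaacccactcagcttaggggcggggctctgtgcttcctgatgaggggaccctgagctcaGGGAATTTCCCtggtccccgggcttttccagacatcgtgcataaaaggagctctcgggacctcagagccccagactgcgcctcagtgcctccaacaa
Cxcl1 chr5:90890995-90891244 (plus strand): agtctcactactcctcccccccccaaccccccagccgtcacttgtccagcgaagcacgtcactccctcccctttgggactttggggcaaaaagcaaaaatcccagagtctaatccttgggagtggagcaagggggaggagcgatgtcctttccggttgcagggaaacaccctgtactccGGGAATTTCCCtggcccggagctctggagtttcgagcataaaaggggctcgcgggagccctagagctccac

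Cxcl2 measured 2.55, 0.880, 1.07, 1.91 and 2.19 CPM in Srgn-/- fat, against 2.60, 2.96, 3.05, 2.29 and 2.39 CPM in Srgn+/+ fat. Only 1 Srgn-/- animal reached into the range of the Srgn+/+ animals. Cxcl2 had a log2 fold change of -0.62 (SE 0.320, 95% interval -1.32 to 0.08, edgeR adjusted p = 0.434), which stayed below 0 in all 20 settings, between -0.81 and -0.44. Cxcl1 averaged 8.36 ± 3.32 CPM in Srgn-/- fat and 8.47 ± 5.07 CPM in Srgn+/+ fat (SD, n = 5 each), a log2 fold change of -0.02 (SE 0.415). The sign of Cxcl1 turned in several settings, with 0.47 without the 3 libraries holding epididymis RNA, 0.31 without Srgn+/+ 4, and 0.01 and 0.02 with upper-quartile scaling and with total reads alone. Neutrophil markers summed to 17.2 to 60.9 CPM in Srgn-/- fat and 7.70 to 65.2 CPM in Srgn+/+ fat, with no read of Ngp, a granule protein of neutrophil precursors; their part in these levels was not tested.

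No eotaxin or ligand of T cells and dendritic cells passed the threshold. Ccl24 (eotaxin-2) averaged 13.2 ± 1.62 CPM in Srgn-/- fat and 13.2 ± 2.55 CPM in Srgn+/+ fat (SD, n = 5 each), and the SE of its log2 fold change was 0.155. Ccl22, a Ccr4 ligand of dendritic cells and macrophages, measured 5.49, 8.47, 4.52, 4.34 and 4.48 CPM in Srgn-/- fat, against 7.51, 6.40, 8.73, 6.18 and 5.97 CPM in Srgn+/+ fat. All Srgn-/- animals but Srgn-/- 2 were below all Srgn+/+ animals, and the log2 fold change of Ccl22 was -0.35 (SE 0.224, edgeR adjusted p = 0.534). Ccl17, the other Ccr4 ligand, averaged 1.29 ± 0.759 CPM in Srgn-/- fat and 1.17 ± 0.725 CPM in Srgn+/+ fat, a log2 fold change of 0.12 (95% interval -0.99 to 1.22) that was 0.42 without the 3 libraries holding epididymis RNA.

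Among the homing and mucosal ligands, Ccl28 had the largest positive fold change of all tested chemokines. Ccl28, an epithelial attractant of plasma cells and T cells that bear Ccr10, measured 9.31, 19.6, 13, 4.34 and 11.8 CPM in Srgn-/- fat, against 5.00, 1.91, 10.5, 3.66 and 2.92 CPM in Srgn+/+ fat. All Srgn-/- animals but Srgn-/- 4 were above every Srgn+/+ animal other than Srgn+/+ 3, which lay within the Srgn-/- range. Ccl28 had a log2 fold change of 1.27 (SE 0.470, 95% interval 0.24 to 2.30), with an unadjusted edgeR p of 0.0204 and an adjusted p of 0.313. It stayed between 1.0 and 1.78 in all 20 settings, and its smallest adjusted p was 0.123, with DESeq2. Ccl28 was highest in Srgn-/- 2, followed by Srgn-/- 3 and Srgn-/- 5, of which the last 2 stood out for epididymis RNA. Without the 3 libraries holding that RNA its log2 fold change was 1.12, with an unadjusted edgeR p of 0.117.

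Cxcl13, which draws B cells through Cxcr5, measured 5.39, 2.75, 5.24, 3.19 and 4.15 CPM in Srgn-/- fat, against 5.58, 62.8, 6.19, 4.46 and 7.70 CPM in Srgn+/+ fat. A single animal, Srgn+/+ 2, stood apart, and the other 9 animals lay between 2.75 and 7.70 CPM. The log2 fold change of Cxcl13 was -2.07 (SE 0.774, 95% interval -3.78 to -0.35, edgeR adjusted p = 0.327), and -0.52 without Srgn+/+ 2. Cxcl12, the stromal ligand of Cxcr4 and Ackr3, averaged 82.7 ± 41.7 CPM in Srgn-/- fat and 76.4 ± 26.2 CPM in Srgn+/+ fat (SD, n = 5 each), a log2 fold change of 0.12 (SE 0.372) that was 0.37 without the 3 libraries holding epididymis RNA and -0.21 without Srgn-/- 1. Cxcl14 averaged 12.4 ± 6.64 CPM in Srgn-/- fat and 13.5 ± 4.87 CPM in Srgn+/+ fat, with a log2 fold change of -0.12 that was 0.17 without those 3 libraries. Ccl25, the Ccr9 ligand of thymus and small intestine, averaged 1.58 ± 0.249 CPM in Srgn-/- fat and 1.68 ± 0.613 CPM in Srgn+/+ fat, with a log2 fold change of -0.08.

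The membrane-bound ligands pointed in different directions. Cx3cl1 (fractalkine), which is made by endothelium and other cells and binds Cx3cr1, measured 14.4, 24.1, 23.1, 12.2 and 23.9 CPM in Srgn-/- fat, against 12.6, 11, 19.7, 13.3 and 16.3 CPM in Srgn+/+ fat. The highest 3 animals were Srgn-/-, and the remaining 2 Srgn-/- animals lay among the Srgn+/+ animals. Its log2 fold change was 0.43 (SE 0.223, 95% interval -0.06 to 0.91, edgeR adjusted p = 0.440), and 0.19 without the 3 libraries holding epididymis RNA. The 4 endothelial markers summed to 549 to 759 CPM in Srgn-/- fat and 489 to 635 CPM in Srgn+/+ fat. All 4 had fold changes above 0, beside 49.7% of all tested genes, with none past the threshold. The part of endothelial cells in the Cx3cl1 level was not tested. Cxcl16, the ligand of Cxcr6 on macrophages and dendritic cells, measured 41.0, 25, 28.0, 31.3 and 25.7 CPM in Srgn-/- fat, against 26.0, 33.6, 46.1, 30.5 and 57.1 CPM in Srgn+/+ fat. The groups overlapped, and the log2 fold change of Cxcl16 was -0.35 (SE 0.216, edgeR adjusted p = 0.516).

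The receptor furthest to the lower side was Ccr7, which guides dendritic cells and naive and central memory T cells toward lymph nodes. Ccr7 measured 2.94, 2.09, 1.67, 3.44 and 2.73 CPM in Srgn-/- fat, against 4.14, 3.63, 7.0, 3.55 and 7.17 CPM in Srgn+/+ fat. Every Srgn-/- animal was below every Srgn+/+ animal, though Srgn-/- 4 and Srgn+/+ 4 nearly met; the same held for 1.38% of all tested genes. No other tested chemokine or receptor had groups that did not overlap on either side, and the higher side held 1.39% of all tested genes. The log2 fold change of Ccr7 was -0.98 (SE 0.299, 95% interval -1.63 to -0.33), with an unadjusted edgeR p of 0.00659 and an adjusted p of 0.247. It lay between -1.10 and -0.71 over the 20 settings, and its smallest adjusted p was 0.0796, with DESeq2.

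Cxcr3, the receptor of effector T cells and NK cells for Cxcl9 and Cxcl10, had the next smallest p among the receptors. It measured 3.43, 2.2, 3.10, 2.30 and 2.30 CPM in Srgn-/- fat, against 4.33, 4.68, 7.92, 2.17 and 4.91 CPM in Srgn+/+ fat. All Srgn+/+ animals but Srgn+/+ 4 were above all Srgn-/- animals. Its log2 fold change was -0.85 (SE 0.317, 95% interval -1.54 to -0.16), with an unadjusted edgeR p of 0.0202 and an adjusted p of 0.313, and it stayed between -1.04 and -0.57 in all 20 settings. Cxcr6, a receptor of tissue-resident T cells and NKT cells, measured 1.37, 1.98, 0.476, 2.30 and 0.765 CPM in Srgn-/- fat, against 1.92, 1.24, 6.60, 1.72 and 1.33 CPM in Srgn+/+ fat. Its log2 fold change of -0.90 (SE 0.555; adjusted p = 0.519 in edgeR) was -0.18 without Srgn+/+ 3 and -0.57 without the 3 libraries holding epididymis RNA.

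Summed T-cell and B-cell markers were lower in Srgn-/- fat than in Srgn+/+ fat. The T-cell list summed to 17.4 to 25.1 CPM in Srgn-/- fat and 27.7 to 73.2 CPM in Srgn+/+ fat, and all 9 tested members had fold changes below 0. The B-cell list summed to 24.0 to 36.1 CPM in Srgn-/- fat and 42.0 to 161 CPM in Srgn+/+ fat, with all 7 tested members below 0. No member of either list passed the threshold. Neither summed level overlapped between the genotypes, but the lists were chosen with earlier results of these data known. Among all tested genes taken singly, 50.3% had fold changes below 0 and 1.38% had lower groups that did not overlap. A share for summed lists was not computed. The NK-cell list summed to 11.3 to 199 CPM in Srgn-/- fat and 18.0 to 40.5 CPM in Srgn+/+ fat, with 5 of 6 tested members below 0. The 199 CPM belonged to Srgn-/- 3, which also held the most epididymis RNA, and the other 4 Srgn-/- libraries summed to 11.3 to 20.3 CPM. The part of these cells in the levels of Ccr7, Cxcr3 and Cxcr6 was not tested.

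**Figure D3:**
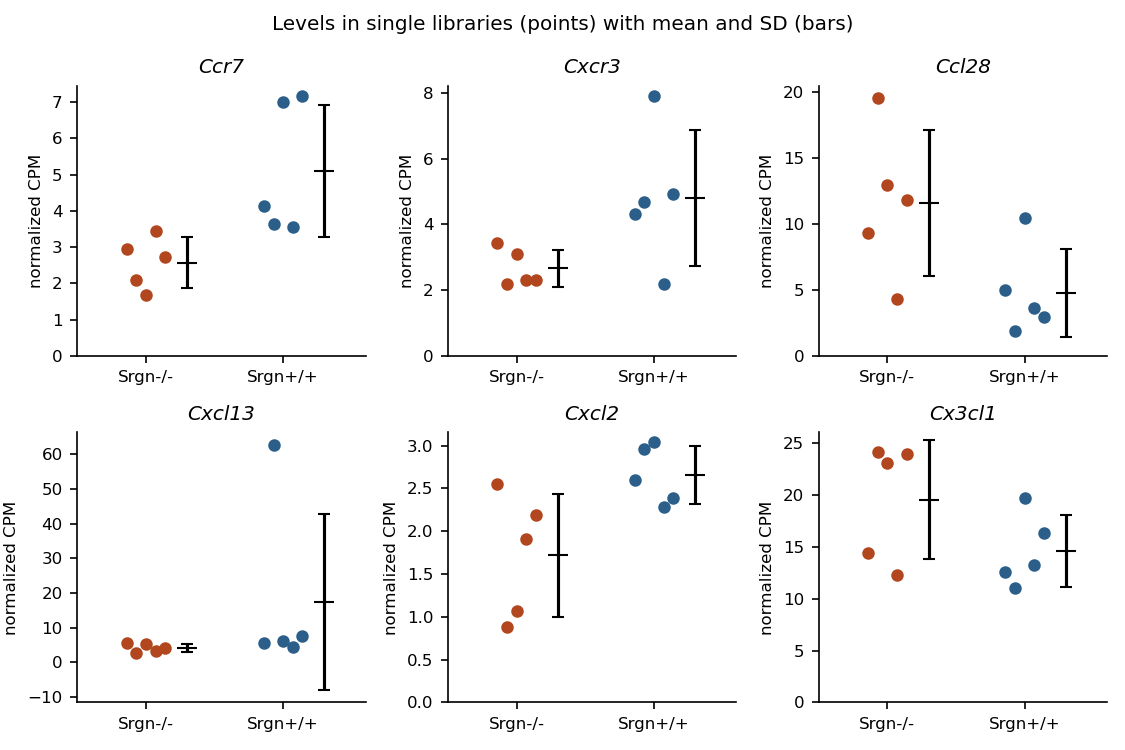
CPM of Ccr7, Cxcr3, Ccl28, Cxcl13, Cxcl2 and Cx3cl1 in each animal (y axes), Srgn-/- left of Srgn+/+, with the mean and SD of each group (n = 5). The Ccr7 groups do not overlap, Srgn+/+ 4 drops into the Srgn-/- range of Cxcr3, and Cxcl13 has a single high animal at 62.8 CPM.

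Receptors of monocytes and macrophages overlapped between the genotypes. Ccr2, the receptor of Ccl2, measured 134, 53.9, 34.8, 55.2 and 60.3 CPM in Srgn-/- fat, against 61.6, 139.5, 98.5, 77.7 and 55.6 CPM in Srgn+/+ fat. Its log2 fold change was -0.36 (SE 0.363, edgeR adjusted p = 0.708), -0.76 without Srgn-/- 1, -0.12 without Srgn+/+ 2 and -0.13 without the 3 libraries holding epididymis RNA. Ccr1 averaged 8.88 ± 3.68 CPM in Srgn-/- fat and 9.78 ± 3.72 CPM in Srgn+/+ fat (SD, n = 5 each), a log2 fold change of -0.13 that was 0.19 without the 3 libraries holding epididymis RNA, 0.09 without Srgn+/+ 3 and -0.39 without Srgn-/- 1. Cx3cr1, the fractalkine receptor, had a mean of 4.02 ± 2.36 CPM in Srgn-/- fat and 3.99 ± 1.62 CPM in Srgn+/+ fat, a log2 fold change of 0.02 that was -0.40 without Srgn-/- 1.

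Cxcr4, the widely expressed receptor for Cxcl12, measured 24.1, 29.4, 29.4, 43.4 and 24.4 CPM in Srgn-/- fat, against 31.7, 26.2, 27.7, 26.2 and 64.0 CPM in Srgn+/+ fat. Apart from Srgn+/+ 5 and Srgn-/- 4, the animals lay between 24.1 and 31.7 CPM. On the log2 scale its fold change was -0.22 (SE 0.268, edgeR adjusted p = 0.758), and 0.10 without Srgn+/+ 5. Xcr1, which marks cross-presenting dendritic cells, averaged 2.43 ± 0.445 CPM in Srgn-/- fat and 2.50 ± 0.586 CPM in Srgn+/+ fat (SD, n = 5 each), a log2 fold change of -0.04.

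Among the atypical receptors, Ackr3, which takes up Cxcl12, had the narrowest interval of any tested receptor. It averaged 257 ± 33.6 CPM in Srgn-/- fat and 248 ± 35.7 CPM in Srgn+/+ fat (SD, n = 5 each), a log2 fold change of 0.05 with a 95% interval of -0.21 to 0.32, and 0.22 without the 3 libraries holding epididymis RNA. Ackr2, a scavenger of inflammatory CC ligands on lymphatic endothelium and other cells, averaged 12.6 ± 3.68 CPM in Srgn-/- fat and 13.6 ± 3.21 CPM in Srgn+/+ fat, a log2 fold change of -0.11. Ackr4, which scavenges Ccl19, Ccl21 and Ccl25, measured 1.76, 6.27, 3.81, 4.72 and 4.48 CPM in Srgn-/- fat, against 7.70, 1.72, 2.33, 2.97 and 1.73 CPM in Srgn+/+ fat. A low Srgn-/- 1 and a high Srgn+/+ 1 crossed the remaining animals, of which all Srgn-/- were above all Srgn+/+. Ackr4 had a log2 fold change of 0.34 (SE 0.454; adjusted p = 0.779 in edgeR), and lay between 0.15 and 0.93 over the 20 settings. With limma-voom it was 0.78, with an unadjusted limma-voom p of 0.0464 and an adjusted p of 0.232.

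The 18 members below the count filter are given as reads summed over the 5 libraries of each genotype. Of the ligands, Xcl1, an attractant of Xcr1-bearing dendritic cells made by T and NK cells, had 32 reads in Srgn-/- fat and 81 reads in Srgn+/+ fat, of which Srgn+/+ 3 held 51. Ccl4 had 14 reads in Srgn-/- fat and 20 reads in Srgn+/+ fat, and the neutrophil attractants Cxcl3 and Cxcl5 had 5 and 14 reads in Srgn-/- fat and 12 and 7 reads in Srgn+/+ fat. Ccl1 had 9 reads in Srgn-/- fat and 6 reads in Srgn+/+ fat. Cxcl15, Cxcl17, Ccl20 and Ccl26 had between 0 and 3 reads in all 10 libraries together. A difference between the genotypes in these 4 was not detectable at this depth.

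Most untested receptors are those of lymphocyte subsets. Cxcr5, the B-cell and follicular T-cell receptor for Cxcl13, had 27 reads in Srgn-/- fat and 85 reads in Srgn+/+ fat, of which Srgn+/+ 1 held 44. Ccr6 had 12 reads in Srgn-/- fat and 37 in Srgn+/+ fat, Ccr4 had 8 in Srgn-/- fat and 20 in Srgn+/+ fat, and Ccr9 had 2 in Srgn-/- fat and 15 in Srgn+/+ fat. Ccr8, a receptor of regulatory and type 2 T cells, had 1 read in Srgn-/- fat and 14 in Srgn+/+ fat. Ccr10 had 1 read in Srgn-/- fat and 4 in Srgn+/+ fat. When the filter was lifted, Ccr8, Cxcr5 and Ccr9 had unadjusted edgeR p-values of 0.0225, 0.0310 and 0.0455 and adjusted p-values of 0.489, 0.514 and 0.538, so none passed. The granulocyte receptors had few reads in both genotypes: Cxcr1 had 12 in Srgn-/- fat and 12 in Srgn+/+ fat, Cxcr2 had 4 in Srgn-/- fat and 6 in Srgn+/+ fat, and Ccr3 had 11 in Srgn-/- fat and 17 in Srgn+/+ fat.

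Animals of the same genotype differed widely in these genes. Within genotypes the median SD of log2 CPM was 0.725 over the tested ligands and 0.505 over the tested receptors, and the highest library exceeded the lowest by a median of 5.03-fold for ligands and 3.56-fold for receptors. Srgn+/+ 1 had the lowest level of 11 of the 24 tested ligands, and Srgn+/+ 3 had the highest level of 9. The summed macrophage markers were also lowest in Srgn+/+ 1, at 1751 CPM, and reached 4222 CPM in Srgn+/+ 3 and 6020 CPM in Srgn+/+ 5; their part in the ligand levels was not tested. In Srgn-/- fat, animal 1 had both the highest Ccl2 and Ccr2 levels and the highest macrophage sum, 3557 CPM, of its genotype. Srgn+/+ 5, with the highest macrophage sum of all, instead had the lowest Ccr2 level of its genotype, 55.6 CPM. Its Ccl2 level, 152 CPM, was the lowest in Srgn+/+ fat apart from that of Srgn+/+ 1.

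**Figure D4:**
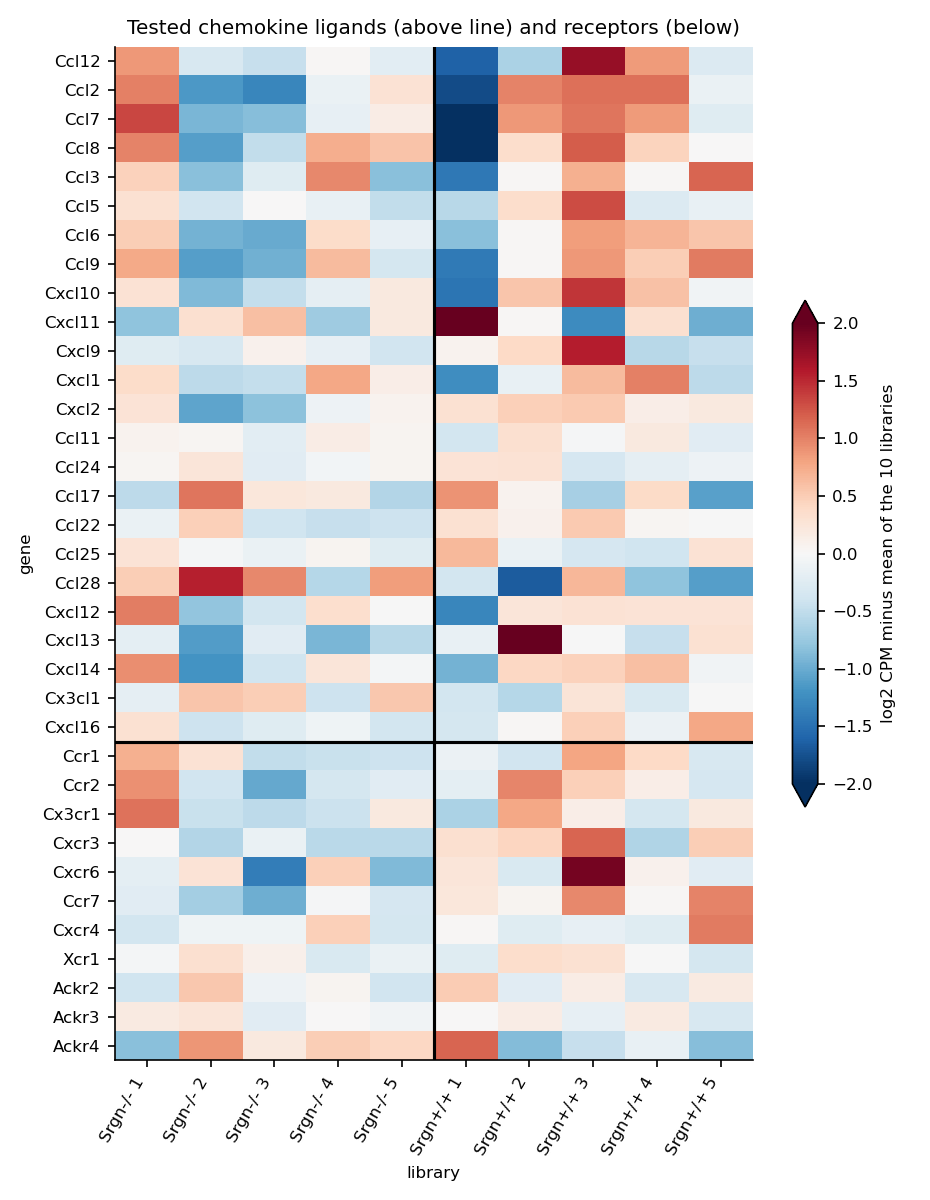
Log2 CPM of tested chemokine ligands and receptors (rows, by role) in each animal (columns, Srgn-/- left of Srgn+/+), minus the gene's mean over the 10 libraries, with colours capped at ± 2. The column of Srgn+/+ 1 is low for most monocyte attractants and inflammatory CC ligands, that of Srgn+/+ 3 is high, and no block of rows separates the genotypes.

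Ligands and receptors that act together were set side by side over the 10 animals, as levels on the log2 CPM scale. Of 17 textbook pairs, 10 had both partners tested, and none passed 0.05 after adjustment over the 10 pairs (two-sided permutation test, 100000 resamples). The correlation was above 0 in 8 of the 10 pairs. Cxcl9 and Cxcr3 had a Pearson r of 0.78 (permutation p = 0.00885, adjusted p = 0.0562) and a Spearman rho of 0.59 (permutation p = 0.0822, adjusted p = 0.206). That relation rests on Srgn+/+ 2 and Srgn+/+ 3, since r was 0.28 without them. Ccl2 and Ccr2 had an r of 0.76 (permutation p = 0.0112, adjusted p = 0.0562) and a rho of 0.71 (permutation p = 0.0273, adjusted p = 0.137), and r was 0.79 without Srgn-/- 3 and Srgn+/+ 1. Ccl7 and Ccr2 had an r of 0.73 (permutation p = 0.0171, adjusted p = 0.0569) and a rho of 0.76 (permutation p = 0.0143, adjusted p = 0.137), and r was 0.87 without Srgn-/- 1 and Srgn+/+ 1. With each genotype centred on its own mean, r was 0.77 for Cxcl9 and Cxcr3, 0.75 for Ccl2 and Ccr2 and 0.75 for Ccl7 and Ccr2. Such values were not particular to the listed pairs: centred r was 0.75 for Ccl5 and Cxcr3 and 0.74 for Ccl7 and Cx3cr1. Other unlisted combinations were negative, such as Ccl2 and Cxcr4 with -0.35. In pairs with stromal or endothelial ligands r was -0.02 for Cxcl12 and Cxcr4, 0.02 for Cxcl12 and Ackr3, and -0.22 for Cx3cl1 and Cx3cr1. Without Srgn-/- 2 and Srgn+/+ 1 it was -0.07 for Cxcl12 and Cxcr4 and 0.55 for Cxcl12 and Ackr3, and without Srgn-/- 2 and Srgn-/- 5 it was -0.20 for Cx3cl1 and Cx3cr1. Levels of a pair share the library, its depth and its cell makeup.

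**Figure D5:**
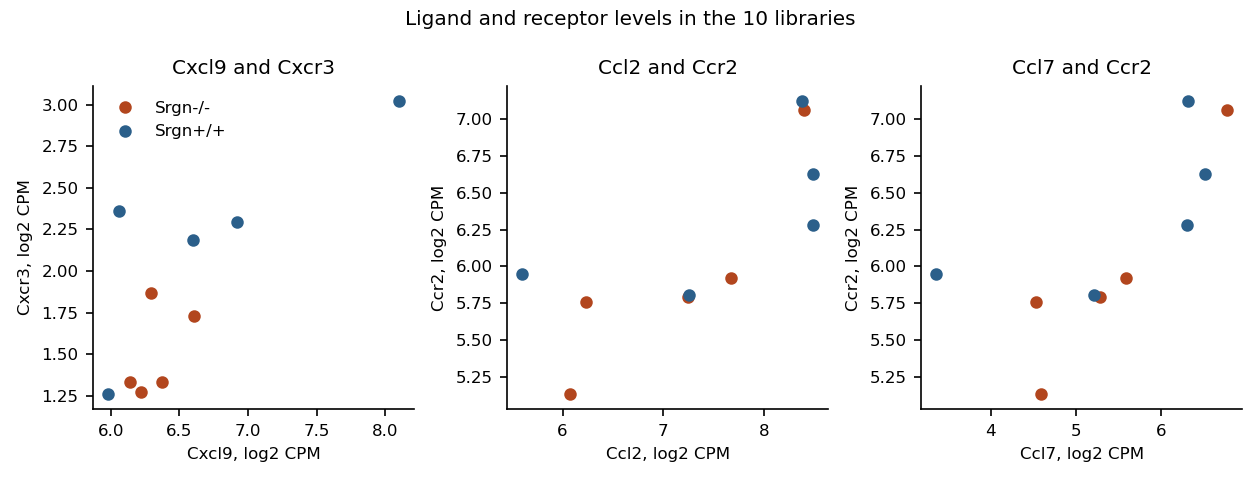
Log2 CPM of the ligand (x axis) and of its receptor (y axis) in each of the 10 animals for Cxcl9 with Cxcr3, Ccl2 with Ccr2 and Ccl7 with Ccr2, coloured by genotype. The Pearson r values are 0.78, 0.76 and 0.73, and the upper right corner of the Cxcl9 panel holds Srgn+/+ 3.

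The signalling genes behind the receptors, a list chosen apart from the symbol rule, also had mostly negative fold changes. The list held 37 tested genes for G proteins, arrestins, kinases and integrins, among others, that act downstream of chemokine receptors. None passed the threshold, and 32 had fold changes below 0 and 5 above, beside 50.3% of all tested genes below 0. The median log2 fold change of the list was -0.31. The 3 with the smallest p were Ptk2, Adrbk1 and Arrb2. Ptk2, which encodes focal adhesion kinase and is broadly expressed, averaged 36.3 ± 3.30 CPM in Srgn-/- fat and 27.4 ± 4.5 CPM in Srgn+/+ fat (SD, n = 5 each), a log2 fold change of 0.40 (edgeR adjusted p = 0.246). Adrbk1, a kinase that desensitises G-protein-coupled receptors, averaged 127 ± 16.1 CPM in Srgn-/- fat and 160.1 ± 13 CPM in Srgn+/+ fat, a log2 fold change of -0.33 (edgeR adjusted p = 0.247). Arrb2, an arrestin that ends receptor signalling, averaged 27.4 ± 5.39 CPM in Srgn-/- fat and 38.0 ± 7.96 CPM in Srgn+/+ fat, a log2 fold change of -0.47 (edgeR adjusted p = 0.299).

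Of 15 tested chemokine-family and related genes under other symbols, none passed. Fold changes were below 0 for 12 and above 0 for 3, beside 50.3% of all tested genes below 0, and the median of the list was -0.24. At an unadjusted edgeR p under 0.05, the higher side held all 3 genes above 0, beside 6.77% of all tested genes. The lower side held 1, beside 6.06% of all tested genes. Cklf, a chemokine-like factor, averaged 16.7 ± 2.05 CPM in Srgn-/- fat and 21.2 ± 2.40 CPM in Srgn+/+ fat (SD, n = 5 each), a log2 fold change of -0.34 (edgeR adjusted p = 0.302). Dpp4, a membrane peptidase that trims several chemokines, averaged 41.4 ± 11.4 CPM in Srgn-/- fat and 32.4 ± 1.46 CPM in Srgn+/+ fat, a log2 fold change of 0.35 (edgeR adjusted p = 0.377). Pitpnm3, described as a receptor for CCL18 in human cells, averaged 1.43 ± 0.404 CPM in Srgn-/- fat and 0.802 ± 0.304 CPM in Srgn+/+ fat, a log2 fold change of 0.82 (edgeR adjusted p = 0.379).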

How the data were processed

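RNA of epididymal fat from 10 mice was read as 1 amplicon per gene with the Ion AmpliSeq mouse transcriptome kit on an Ion S5 XL sequencer, per the labels' protocols; the series title speaks of Illumina sequencing. The authors deposited raw counts, whole-number reads per gene, and a second table of reads-per-million values (RPM), which differs from the raw counts scaled by total reads by at most 0.00059109. The submitters' processing notes name build mm9; which aligner and counter were used is not given in these sources. As PCR products without molecular identifiers, these reads let a floor of 3 reads cover counting error alone. Levels of different genes are not compared, since amplicons differ in efficiency.

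The counts were fitted over the whole table in R 4.3.3 with edgeR 4.0.16: filterByExpr (minimum count 10, minimum total count 15), TMM factors, robust quasi-likelihood F test, Benjamini-Hochberg adjustment over 12719 genes, threshold 0.05, no covariates, two-sided. The filter removed 11211 genes. The fit was tested on simulated counts drawn with the same dispersion for every gene. That test does not measure power for genes as variable between mice as the chemokines. Fold changes are log2 of Srgn-/- over Srgn+/+, SE is their standard error, and log2 CPM used a prior count of 2. Each library is a separate mouse, numbered in accession order, so p-values measure the spread between mice. No 2 libraries were alike within sampling noise. Alternatives were other scalings, filters, DESeq2 1.42.0, limma 3.58.1 (voom with quality weights), leaving out each library and, chosen after seeing the data, leaving out the 3 libraries with the most epididymis RNA and limma-trend on log2(RPM + 1): 20 settings with the fit above. Correlations used Python 3.11.15, numpy 2.4.6 and scipy 1.17.1, and figures matplotlib 3.10.9.

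The members, lists and pairs were chosen with earlier results of these data known. Values per library are given by rule for the 8 tested ligands and 6 tested receptors with the smallest p and for the 4 ligands and 2 receptors with the largest SD within genotypes; Ccl11 was added after its values were seen, as were single libraries named for other genes. Of each pathway list the 3 genes with the smallest p are named. Promoter windows come from RefSeq GRCm38.p6, another build than the authors', matched by symbol. Counts cover all members, but a receptor that the rule names is not reported here.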

Additional observations from a re-analysis of the deposited data

Results flagged for a closer look

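Single animals stood apart from the other 4 of their genotype by Dixon's test for 5 values (critical ratio 0.71), in 4 cases on log2 CPM and in 13 on CPM, the 4 included. Chance flags about 1 in 20 groups of normally distributed values, and both genotypes of Srgn and of all 36 tested members were examined.

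On both scales, Cxcl13 reached 62.8 CPM in Srgn+/+ 2, while the other Srgn+/+ animals held 4.46 to 7.70 CPM. Cxcl12 was low in Srgn+/+ 1, at 29.5 CPM, while the others held 86.4 to 89.3 CPM. Cxcr6 was high in Srgn+/+ 3, at 6.60 CPM, while the others held 1.24 to 1.92 CPM. Cxcr4 was high in Srgn+/+ 5, at 64.0 CPM, while the others held 26.2 to 31.7 CPM.

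On CPM alone, the animals that stood apart were all on the high side, in both genotypes. Srgn-/- 1 held 12.3 CPM of Ccl12, 109.7 CPM of Ccl7 and 134 CPM of Ccr2. Ccl22 was high in Srgn-/- 2, at 8.47 CPM, and Cxcr4 in Srgn-/- 4, at 43.4 CPM. Srgn itself measured 1.31 CPM in Srgn-/- 5, while the other Srgn-/- animals held 0 to 0.294 CPM. Among Srgn+/+ animals, Cxcl9 was high in Srgn+/+ 3, at 275 CPM, and Srgn+/+ 1 held 25.9 CPM of Cxcl11 and 7.70 CPM of Ackr4.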

How the results depend on the processing

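The number of chemokine ligands and receptors called was 0 in all 20 settings, with edgeR, DESeq2 and limma alike. DESeq2 gave no adjusted p for Cxcl13 and Ccl17, so these ligands could not be called there. Over all genes the number called lower was 3 with no filter, 108 with DESeq2, 8 with limma-voom and 1 to 2 when a library was left out, and the number called higher was 118 with DESeq2 and 2 with limma-voom; the cause was not tested. The direction was the same in all 20 settings for 11 of 24 ligands and 6 of 12 receptors. The median of the receptors was -0.57 with no filter, which adds 9 receptors with few reads, and -0.40 to -0.15 when a library was left out; that of the ligands was -0.47 to -0.09. Ligands with lower groups that did not overlap numbered 0 to 1 when a library was left out and 1 without the 3 libraries with epididymis RNA; receptors numbered 1 to 2 and 2. In these smaller designs the lower groups did not overlap for 1.63% to 3.17% of all tested genes when a library was left out and for 2.80% without the 3 libraries. Ccl8 turned to -0.11 with limma-voom and ranged between -0.25 and 0.41 in the fits without a library, 5 of them below 0 (-0.19, -0.07 and -0.03 without Srgn-/- 1, 4 and 5; -0.25 and -0.02 without Srgn+/+ 1 and 5). Cxcr4 turned to 0.10 without Srgn+/+ 5, in a range of -0.39 to 0.10 over fits without a library, and Ccl7 to 0.071 without the 3 libraries with epididymis RNA. The r of Ccl3 and Ccr1 was -0.022 without those 3 libraries, and that of Cxcl12 and Ackr3 was -0.12 without them and -0.091 on log2(RPM + 1). Without each pair's 2 farthest libraries, 1 pair passed 0.05: Ccl7 with Ccr2, adjusted permutation p = 0.0354. No paired analysis was possible because the labels give no replicate numbers or litters. Depth limits the 18 members below the filter.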
